A study of Rattus norvegicus with 12 samples.

Results

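The most abundant nuclear transcripts of the RCS rat retina at p21 were 97 genes out of 32883 in the deposited count files. Counts on each gene were scaled to the library's total (CPM), the 32846 genes outside the mitochondrial genome were ranked by their mean CPM over the 6 p21 libraries, and the first 100 were taken. Of 6 identifiers set aside by the definition of the group, 3 were in these first 100, which left 97 genes with ranks between 2 and 100. The genes were thus chosen by their CPM in the p21 libraries. The CPM at ranks 98, 99 and 100 was 712, 711 and 710, and the next genes outside, at ranks 101, 102 and 103, had 706, 702 and 700.

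Whole retinas from RCS rats were sequenced from poly(A) RNA in 12 libraries, 3 for each of 4 groups. The immunocompetent line, labelled WT and male with genotype RCS-p+, was collected at p21 (libraries 1, 2 and 3) and at p60 (libraries 19, 20 and 21). The athymic line, labelled female with genotype RCS-p+/Foxn1mu, was collected at p21 (libraries 4, 5 and 6) and at p60 (libraries 22, 23 and 24). All groups carried the RCS background, the samples include no rats without retinal degeneration, and line and labelled sex coincide, so that line and sex cannot be told apart by the labels. Total counts ranged from 13852516 to 16725355 per library.

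RCS rats lack a working Mertk, the receptor with which the retinal pigment epithelium engulfs the outer segment tips that photoreceptors shed each day, so debris builds up and photoreceptors are lost after they have matured. Rods are the most numerous cells of a rat retina, and the transcripts of their light-sensing machinery are known to be among the most abundant of the tissue. Foxn1 is needed to form the thymus, where T cells mature. The files list genes by Ensembl identifier and the gene table used here, of another assembly, paired none of the 32883 with a symbol, so the roles of the 97 genes are not described, and the labelled tissue was not checked against marker genes. Genes are given by their rank at p21 and their position in the rat genome build Rnor_6.0. In whole retina, fewer cells of a type and less RNA per cell cannot be told apart.

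Some libraries stood apart from their labels or from their group. Counts on the Y chromosome were 293, 323 and 229 CPM in libraries 1 to 3 and 251, 281 and 283 CPM in libraries 19 to 21, all labelled male. In the libraries labelled female they were 328, 316 and 8.79 CPM in libraries 4, 5 and 6, and 269, 23.2 and 16.1 CPM in libraries 22, 23 and 24, so the Y counts of libraries 4, 5 and 22 went against the labelled sex. Library 4 also held 22 genes with at least 10 CPM and at least 5 times the CPM of every other library of its age. These 22 genes together took 17432 CPM of that library, whereas no other library had more than 3 such genes. One of the 22, at rank 44, was among the 97. This rule can miss genes that are high in more than 1 library of an age. At p60, the gene at rank 44 had 2711 normalized CPM in library 19 and 994 in library 24. The other p60 libraries had 8.39 to 46.1.

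At p21, 13.5% ± 0.425 of all counts fell on the 97 genes, compared with 7.88% ± 0.131 at p60 (SD, n = 6 libraries per age). In the immunocompetent line the share was 14.3%, 13.6% and 13.3% at p21 and 7.94%, 7.81% and 7.69% at p60. In the athymic line it was 13.1%, 13.1% and 13.5% at p21 and 7.91%, 8.08% and 7.88% at p60. No p60 library reached the share of any p21 library in either line. A high share at p21 was set by the choice of the genes, so the difference between the ages is given as a description. Relative to nuclear counts alone, the share dropped from 14.1% to 8.30%. The 3 identifiers set aside took 2.61% of counts at p21 and 0.878% at p60.

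**Figure D1:**
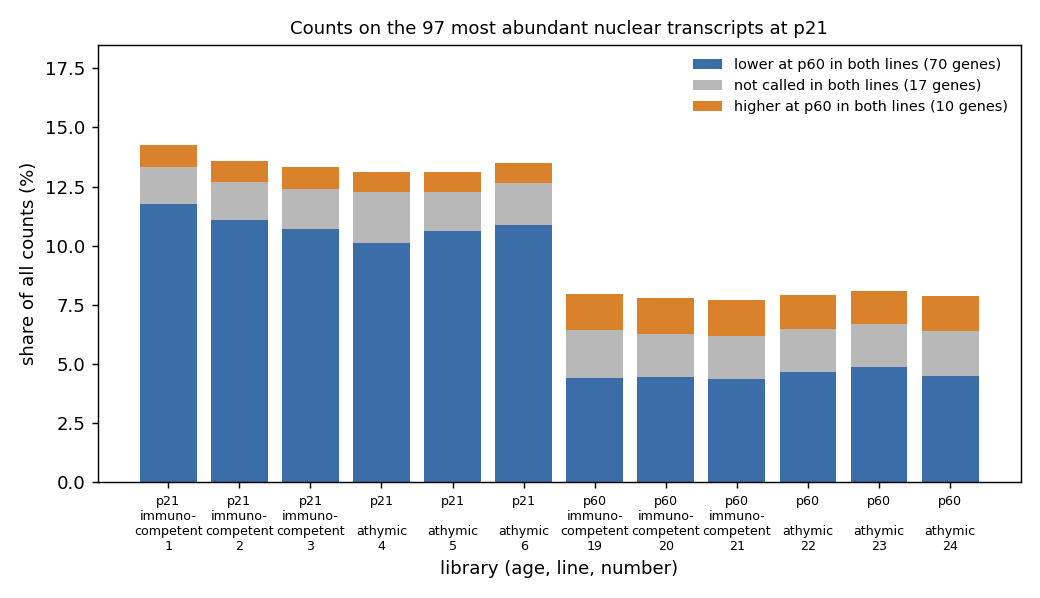
Share of all counts (%) on the 97 genes in each of the 12 libraries, stacked by the direction called in both lines. The share was between 13.1% and 14.3% in the p21 libraries and between 7.69% and 8.08% in the p60 libraries, and the segment of the 70 genes lower in both lines is the one that shrinks.

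By rank, which is itself set by the p21 values, the loss is given as a description. The first 10 of the 97 genes, at ranks 2 to 8, 10, 11 and 13, took 3.79% ± 0.307 of counts at p21 but 0.817% ± 0.0791 at p60, whereas the other genes took 9.69% ± 0.149 and 7.07% ± 0.0692 (SD, n = 6 libraries per age). Summed over genes whose mean CPM was lower at p60 (71 genes), the loss was 63803 CPM, and the gain over the other 26 was 7797 CPM. Only 12 genes made up 50% of that loss, and the gene at rank 2 alone made up 15.5%. Of the 8 genes at ranks 2 to 10, all 8 were called lower at p60 (edgeR over all 12 libraries, adjusted p under 0.05) with a median log2 fold change of -2.50. The median was -1.24 at ranks 11 to 25 (13 of 14 lower), -0.76 at ranks 26 to 50 (20 of 25 lower), -0.24 at ranks 51 to 75 (15 of 25 lower) and -0.49 at ranks 76 to 100 (16 of 25 lower). All of the 11 genes called higher were ranked below 25. Among all genes tested 30.3% were called lower and 31.7% higher, and since the ranks rest on the p21 values that enter the change, nothing is read from this order.

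**Figure D2:**
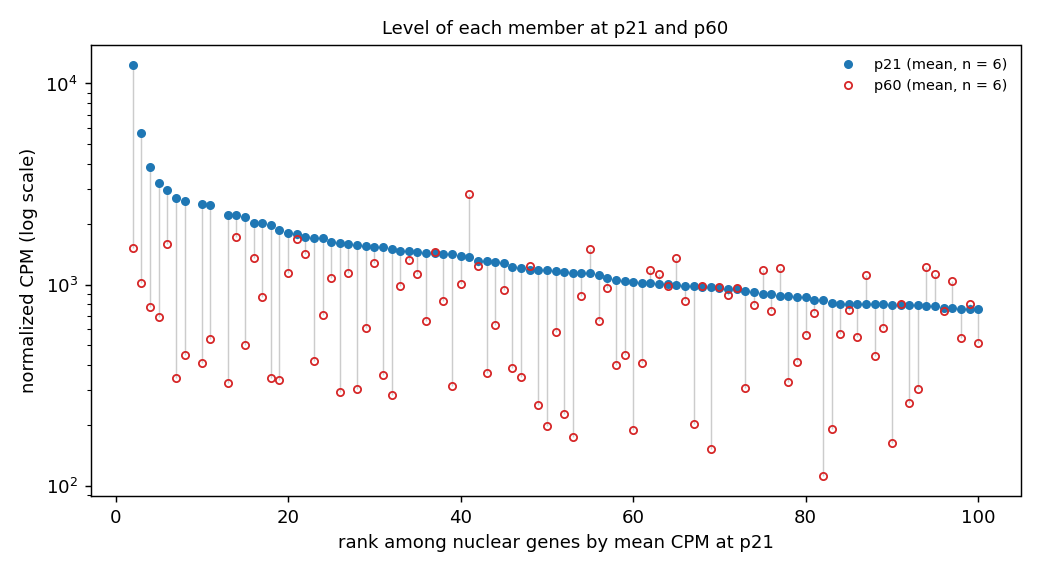
Mean normalized CPM (log scale, n = 6 libraries per age) of each of the 97 genes at p21 (filled) and p60 (open), against the rank at p21. At ranks 2 to 10 every open point lies below its filled point, and the open point at rank 41 is the highest of the p60 values.

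Across all 12 libraries, with line as a covariate, 72 of the 97 genes were called lower at p60 and 11 higher in the quasi-likelihood test of edgeR, with p-values adjusted over all genes by the Benjamini-Hochberg method, and 14 were not called. The shares of 30.3% lower and 31.7% higher are over the 16069 genes tested. Because p21 levels chose the 97 genes, nothing is read from this difference. The median log2 fold change was -0.66 over the 97 genes and 0.02 over all genes tested. With libraries scaled to total counts alone, the median of all genes was 0.20 and the split of the 97 was 64 lower and 20 higher (18.1% and 45.8% of all genes). The same 64 and 11 genes were called lower and higher under both scalings. At least 4-fold falls were called for 28 of the 97 genes (1.34% of all genes tested) and at least 2-fold falls for 44 (5.36%), and 1 gene rose at least 2-fold (5.22%). These 44 genes took 7.68% of counts at p21 and 1.97% at p60. Changes were within 0.5 on the log2 scale for 39 genes. In normalized CPM, which are CPM divided by the TMM scaling factor, every p60 library was below every p21 library for 69 genes (20.5% of all genes tested) and above for 9 (19.8%), and the ages overlapped for 19.

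To give each line's change from other libraries than those that chose the genes, the genes were also ranked in 1 line at p21 and tested in the other. Ranking in the immunocompetent line gave 96 genes, of which 71 were lower and 10 higher at p60 in the athymic line, where 24.6% of the 15507 genes tested were lower and 25.3% higher. Ranking in the athymic line gave 97 genes, of which 69 were lower and 11 higher in the immunocompetent line, where 25.8% of the 15412 genes tested were lower and 25.6% higher. The rankings shared 89 genes. The libraries tested had no part in these rankings, but the genes were still picked for a high level at 1 of the ages, so the splits describe genes abundant at p21. The share of counts on the genes ranked in the immunocompetent line went from 13.0% to 7.83% in the athymic line, and that on the genes ranked in the athymic line from 13.6% to 7.75% in the immunocompetent line. Each of these share differences had p = 0.1 in a two-sided exact permutation test, which is the smallest p that 3 against 3 libraries allow, so neither could pass 0.05. Adjusted over the 10 tests of shares, p was 0.25 for both.

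The gene with the most counts, at rank 2 (ENSRNOG00000017589), lies on the minus strand at chr8:116433302-116438038 and has 9 exons. Its normalized CPM in the immunocompetent line was 15437, 12740 and 11043 at p21 and 1531, 1516 and 1244 at p60. In the athymic line the values were 10528, 11480 and 12777 at p21 and 1484, 1860 and 1466 at p60. All p60 libraries were far below all p21 libraries, and library 23 was the highest of the p60 values. The log2 fold change was -3.19 ± 0.139 (SE, adjusted p = 1.94e-07, edgeR) for the immunocompetent line. It was -2.86 ± 0.110 (adjusted p = 3.51e-07) for the athymic line. This gene and the falls and rises below were picked by p21 counts or by the size of the change. The tests use the same libraries, so the p-values of these genes are given as a description. Even after an 8.13-fold fall over all libraries it was still ranked 9 among nuclear genes at p60. Its exons share 166 of 2169 bases with another gene on the same strand, which had 195 CPM at p21, and the counting of reads in shared bases is not given in the sources used here.

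Over all libraries, the next largest fall was at rank 7 (ENSRNOG00000008807), with a log2 fold change of -2.98 ± 0.0740 (SE). The gene lies at chr5:15043955-15060508 with 4 exons and an exonic length of 6991 bases. Its normalized CPM was 2790, 2857 and 2651 at p21 and 322, 318 and 344 at p60 in the immunocompetent line, and 2657, 2824 and 2420 at p21 and 336, 419 and 315 at p60 in the athymic line. The ages did not overlap, and library 23 was again the highest at p60. The log2 fold change was -3.08 ± 0.0692 (SE, adjusted p = 1.77e-08, edgeR) and -2.89 ± 0.112 (adjusted p = 3.51e-07) in the immunocompetent and the athymic line. By p60 the gene had left the first 100 for rank 322.

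A gene far lower in the ranking fell almost as much. The gene at rank 82, at chr15:34197193-34198921 with 2 exons, had normalized CPM of 880, 841 and 888 at p21 and 107, 96.3 and 97.2 at p60 in the immunocompetent line. In the athymic line it had 822, 784 and 819 at p21 and 113, 141 and 118 at p60. Its p60 libraries were all below its p21 libraries, and the log2 fold change over all libraries was -2.91 ± 0.0824 (SE). It had the lowest p60 rank of the 97 genes, 1975.

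The remaining genes of the 8 largest falls were at ranks 13 (chr14:2328750-2371883), 53 (chr7:12240060-12246729), 69 (chr9:105531195-105655471), 10 (chr13:67545430-67558600) and 50 (chr14:38155759-38171010). Their log2 fold changes over all libraries lay between -2.77 and -2.58. Each fell in both lines. The other genes of the first 10 were at rank 3 (chr5:172934990-172979986), rank 4 (chr9:94928489-94972027), rank 5 (chr18:56544652-56617480), rank 6 (chr8:64481172-64502722), rank 8 (chr10:109620980-109622745) and rank 11 (chr20:7931674-7943575). All were lower in both lines, and their log2 fold changes over all libraries were between -2.53 and -2.22 except at rank 6. The gene at rank 6 fell by 0.90 ± 0.110 (SE) on the log2 scale and stood at rank 7 at p60. Its normalized CPM at p60 was 1759, 1049 and 1641 in the immunocompetent line and 1657, 1706 and 1733 in the athymic line. Library 20 was far below the others, and the p60 libraries were all below the lowest p21 value of 2698.

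The largest rise was at rank 41 (ENSRNOG00000016343), at chr1:176940693-176983045 on the minus strand with 8 exons. Its normalized CPM was 1380, 1348 and 1297 at p21 and 2955, 2877 and 2954 at p60 in the immunocompetent line, and 1480, 1382 and 1337 at p21 and 2695, 2647 and 2899 at p60 in the athymic line. No p21 library reached any p60 library. The log2 fold change was 1.12 ± 0.0607 (SE, adjusted p = 7.62e-07, edgeR) in the immunocompetent and 0.97 ± 0.0581 (adjusted p = 3.76e-06) in the athymic line. It was the only one of the 97 genes that rose at least 2-fold over all libraries, and it was ranked 3 at p60.

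The gene at rank 94 (ENSRNOG00000000571), at chr20:29831314-29856875 with 14 exons, followed. It had normalized CPM of 799, 770 and 848 at p21 and 1339, 1215 and 1211 at p60 in the immunocompetent line, and 766, 734 and 790 at p21 and 1218, 1125 and 1266 at p60 in the athymic line. Again the ages did not overlap. Its log2 fold change was 0.64 ± 0.0696 (SE, adjusted p = 7.06e-05, edgeR) and 0.65 ± 0.0610 (adjusted p = 5.03e-05) in the immunocompetent and the athymic line, and it rose to rank 20.

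The other rises among the 8 largest were smaller, with log2 fold changes over all libraries from 0.53 down to 0.41. They were at ranks 95 (chr9:17817721-17823243), 87 (chr3:161425988-161462879), 77 (chr6:136142956-136145837), 65 (chr6:124217241-124225292), 97 (chr3:143219686-143223615) and 55 (chr20:17075771-17091766). All 8 genes were ranked between 3 and 31 at p60. The 10 genes called higher in both lines took 0.884% ± 0.0231 of counts at p21 and 1.47% ± 0.0509 at p60, whereas the 70 called lower in both lines took 10.9% ± 0.542 and 4.54% ± 0.194 (SD, n = 6 libraries per age).

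**Figure D3:**
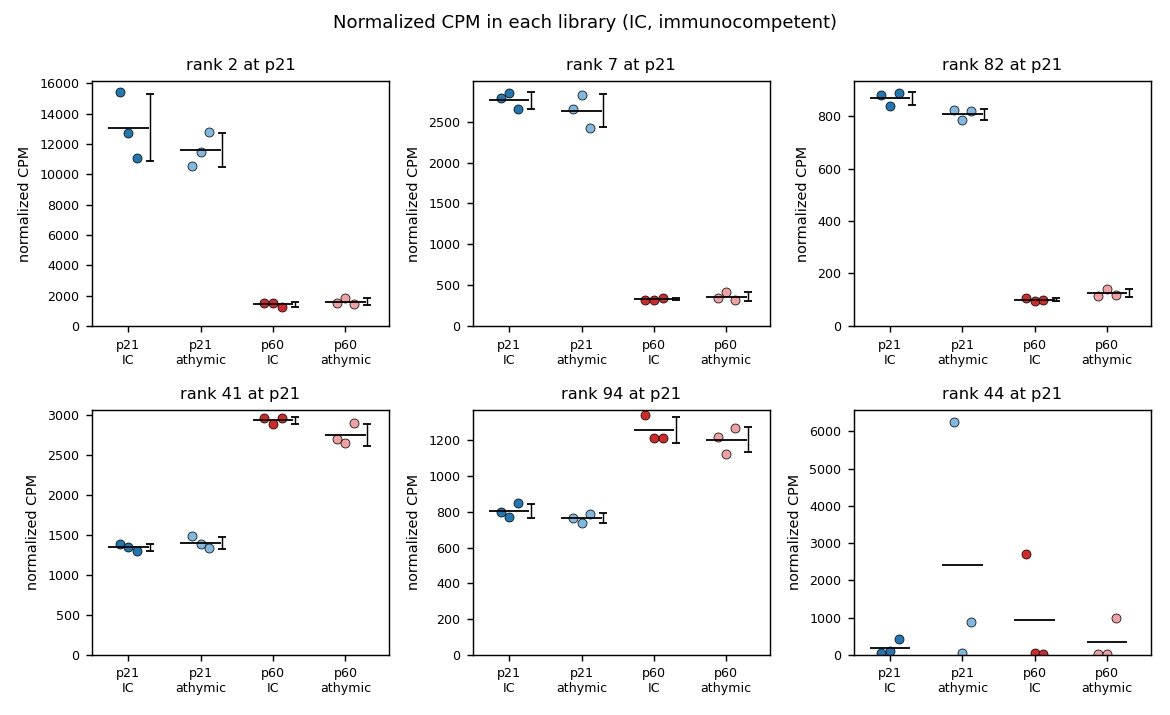
Normalized CPM in each library for the genes at ranks 2, 7, 82, 41, 94 and 44, by age and line (IC, immunocompetent). Points are libraries, lines are means and bars are SD (n = 3 libraries, not drawn for rank 44). The ages do not overlap for the first 5 of these genes, and at rank 44 single libraries stand far above the rest.

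The gene at rank 44, at chr20:10438444-10442187, was unlike the others. Its normalized CPM was 54.3, 93.8 and 415 in libraries 1, 2 and 3, and 6260, 54.8 and 888 in libraries 4, 5 and 6. At p60 it was 2711, 46.1 and 13.9 in libraries 19, 20 and 21, and 24.2, 8.39 and 994 in libraries 22, 23 and 24. Single libraries were high within each group and the groups overlapped. Without library 4 its mean at p21 was 284 CPM and its rank 517, so it belonged to the 97 genes only through that library. The log2 fold changes of 2.30 ± 1.53 and -2.80 ± 1.82 (SE) in the immunocompetent and the athymic line had opposite signs and were not called (adjusted p = 0.237 and 0.232, edgeR). The part of library 4's other high genes in this value was not tested.

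The gene at rank 78, at chr8:21786324-21831668, also varied within a group. It had normalized CPM of 1050, 1037 and 949 in the immunocompetent line at p21 but 574, 585 and 1053 in the athymic libraries 4, 5 and 6. At p60 the values were 237, 298 and 335 in the immunocompetent and 339, 432 and 322 in the athymic line. Libraries 4 and 5, with Y counts against their label, were the low ones at p21, and the ages did not overlap. Only the genes at ranks 6, 44 and 78 had a coefficient of variation over 20% in any group, and the median over the 97 genes was between 5.0% and 5.88% in the 4 groups.

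Both lines were called in the same direction for most of the genes. Of the 97, 70 were lower in both lines, 10 higher in both and 16 called in neither, and 1 (rank 63) was called higher in the immunocompetent line alone (log2 fold change 0.22 ± 0.0781 against 0.13 ± 0.0680, SE). Of 15225 genes tested in both lines, 20.6% were lower in both and 19.9% higher in both. In the immunocompetent line alone 70 were lower and 11 higher (25.8% and 25.6% of all genes tested). In the athymic line 70 were lower and 10 higher (24.6% and 25.3%). With total counts alone these splits were 63 and 17 in the immunocompetent line (15.4% and 38.1% of all genes), and 61 and 18 in the athymic line (14.4% and 38.9%). The log2 fold changes had the same sign in both lines for 89 genes, and the median absolute gap between the lines was 0.12.

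**Figure D4:**
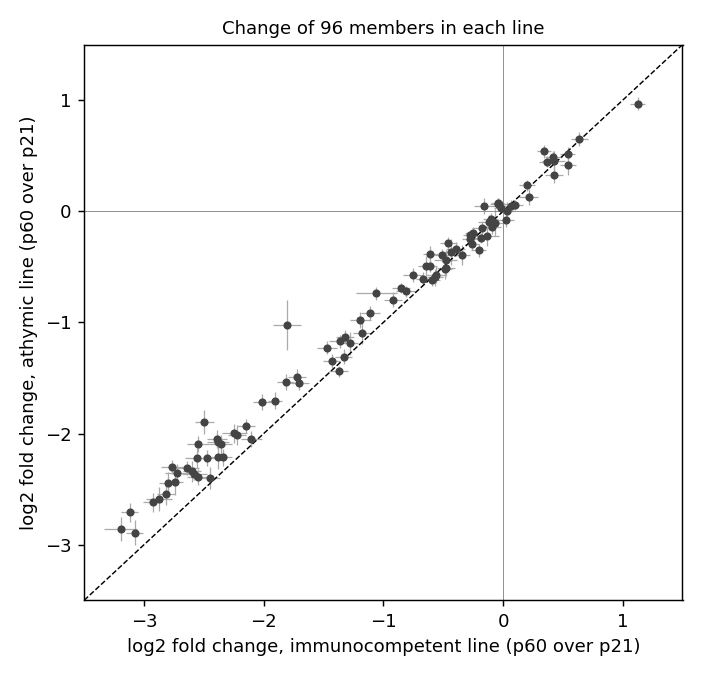
Log2 fold change (p60 over p21) of 96 of the 97 genes in the immunocompetent line (x axis) and the athymic line (y axis), with SE bars; the gene at rank 44 is left out for its spread. The dashed line marks equal change, and most of the genes that fell lie above it.

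The size of the falls was compared between the lines with the interaction of age and line. None of the 97 genes was called by edgeR (lowest adjusted p = 0.177, and 0.00622% of all genes tested were called). An unadjusted p under 0.05 was found for 21 genes (21.6%, against 9.28% of all genes tested), but it ranged from 10 without library 1 (10.3% against 8.95%) and 13 without library 23 (13.4% against 6.84%) to 31 without library 24 (32.0% against 11.3%), and was 35 with no filter on low counts (36.1% against 8.01%). DESeq2 called 4, at ranks 4, 18, 39 and 82 (0.909% of all genes), and edgeR without the filter on low counts called 2, at ranks 18 and 39 (0.466% of all genes). These genes were singled out after their values were seen. The interaction at rank 39 (chr4:28972434-28975419) was 0.61 ± 0.141 on the log2 scale (SE, athymic minus immunocompetent). It had log2 fold changes of -2.50 ± 0.0808 and -1.89 ± 0.108 in the immunocompetent and the athymic line. Its normalized CPM was 1664, 1482 and 1397 at p21 and 262, 262 and 283 at p60 in the immunocompetent line, and 1270, 1317 and 1364 at p21 and 366, 408 and 294 at p60 in the athymic line. At each age the lines did not overlap. Of the 44 genes with at least 2-fold falls, 43 had the larger fall in the immunocompetent line, with medians of -2.37 and -2.07, but these genes share libraries and scaling and are not replicates. The number was 40 without library 1 and 40 without library 4. The median interaction over the 44 was 0.25 with all libraries. It was 0.17 without library 1 and 0.18 without library 23, but 0.29 without library 24.

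The lines were next compared at each age. At p60, none of the 97 genes was called between the lines (lowest adjusted p = 0.359, edgeR, and 0.0193% of all genes tested were called), and DESeq2 called 2, at ranks 4 and 39 (0.681% of all genes). An unadjusted p under 0.05 was found for 19 (19.6%, against 9.4% of all genes tested), but it ranged from 5 without library 23 (5.15% against 5.13%) and 10 without library 21 (10.3% against 8.51%) to 27 without library 24 (27.8% against 10.2%), and was 28 with DESeq2 (28.9% against 6.61%), so this count depended on single libraries. At p21, none was called (lowest adjusted p = 0.268, with 0.0% of all genes called), and DESeq2 called 2, at ranks 18 and 76 (0.92% of all genes). An unadjusted p under 0.05 was found for 17 (17.5%, against 12.7%). That count was 4 without library 1 (4.12% against 8.84%), 10 without library 2 (10.3% against 7.76%) and 32 without library 3 (33.0% against 16.5%). It was 8 without library 4 (8.25% against 11.2%) and 11 without library 5 (11.3% against 11.5%), and thus it too depended on single libraries. Without libraries 3, 4 and 5, library 6 is the lone athymic library at p21, so only the size of the difference is given here and no call is read. Library 3, whose Y counts go with its label, was also left out, a choice made after seeing the data. The median log2 difference over the 97 genes was then -0.05 (athymic minus immunocompetent), against -0.07 with all libraries. The spread in that fit came from libraries 1 and 2 and was shared across genes, and the lone library was assumed to vary like them. The share of counts on the 97 genes was 7.96% in the athymic and 7.81% in the immunocompetent line at p60 (difference 0.146 percentage points, p = 0.3) and 13.3% and 13.7% at p21 (p = 0.2, two-sided exact permutation tests). On the first 10 genes the share at p60 was 0.873% ± 0.0692 in the athymic and 0.761% ± 0.0374 in the immunocompetent line (SD, n = 3 libraries, exact permutation p = 0.1, 0.25 adjusted over the 10 tests). Every athymic library was above every immunocompetent library there, and 0.1 is the smallest p possible.

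The set of most abundant transcripts itself changed between the ages. At p60, 52 of the 97 genes were still among the first 100 nuclear genes and 45 had left, with a median p60 rank of 311. Of the 45, 44 were lower in both lines (20.6% of all genes tested in both), which follows from how they were picked. At p60, 42 other genes had entered from p21 ranks between 102 and 947 (median 164.5), of which 35 were called higher and 1 lower (31.7% and 30.3% of all genes tested). The p60 values chose these 42, so nothing is read from these counts. Of the 8 genes at ranks 2 to 10 at p21, 2 were in the first 10 at p60. They were ranked 2 and 6 at p21, and 9 and 7 at p60.

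The 97 genes lay on 20 chromosomes, with none on chromosomes 17 and Y. Chromosome 10 held 13 (13.4% of the genes, against 8.40% of all nuclear genes tested), chromosome 1 held 11 (11.3% against 12.5%), and chromosomes 5 and 8 held 9 each (9.28% against 6.54% and 5.70%). Relative to the number of genes tested, chromosome 20 held 1.08 per 100 genes, and 0.862 without the gene at rank 44, which was included only through library 4. Chromosome 8 held 0.984 and chromosome 10 held 0.964. Chromosome 8 took 2.22% of all counts at p21 through 9 genes, the largest sum of any chromosome, and 0.857% at p60, and the gene at rank 2 is one of these 9. All 9 genes on chromosome 5 were called lower. On chromosome 3, 2 of 6 genes were lower and 3 higher, and on chromosome 6, 1 of 3 was lower and 2 higher. These counts are small and are given as a description, beside 30.3% lower and 31.7% higher of all genes tested.

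**Figure D5:**
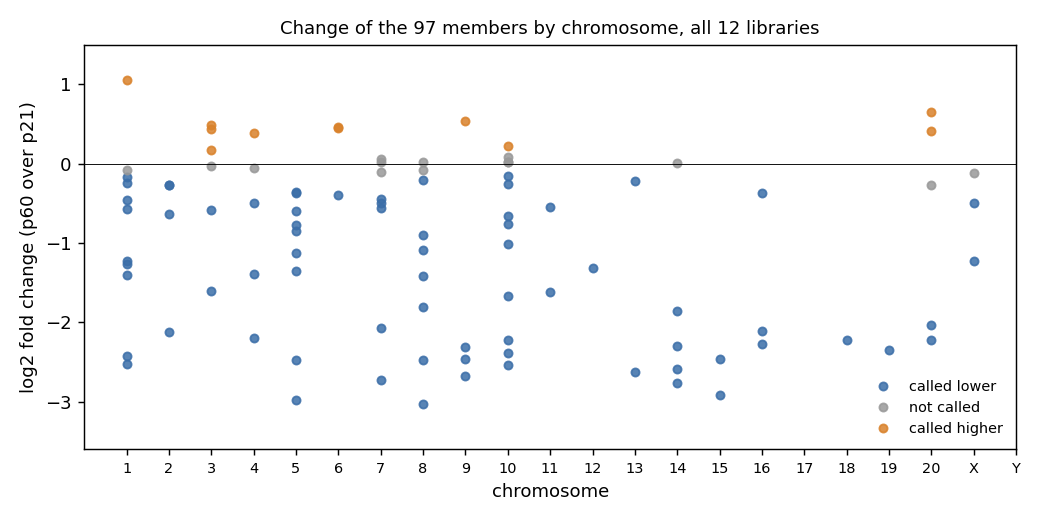
Log2 fold change (p60 over p21, all 12 libraries) of each of the 97 genes by chromosome, coloured by the call. All 9 points of chromosome 5 lie below 0, chromosomes 17 and Y hold none, and the 11 genes called higher lie on chromosomes 1, 3, 4, 6, 9, 10 and 20.

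Few of the genes were neighbours. Only 6 pairs lay within 500000 bases of each other, 5 of them with log2 fold changes of the same sign and 4 with both genes called lower over all libraries. On chromosome 10, the genes at rank 62 (chr10:65586504-65590126) and rank 46 (chr10:65606898-65612324) are on the same strand, 16772 bases apart with 1 gene between them, and had opposite calls, with log2 fold changes of 0.22 and -1.67. The closest pair was on the X chromosome, where the genes at ranks 71 and 59 are 5277 bases apart with no gene between them. The first was not called (-0.11) and the other was lower (-1.23). On chromosome 1, the genes at ranks 16 and 32, 25908 bases apart on opposite strands, were both lower (-0.57 and -2.42).

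CPM is not scaled to the length of a transcript, so long transcripts rank higher by counts than by copies. The median exonic length of the 97 genes was 2917 bases (264 to 24116), against 2270 for all nuclear genes tested, and the median number of exons was 12 against 8. Ranked by CPM per kilobase of exon, 51 of the 97 stayed among the first 100. On that scale the gene at rank 8, with an exonic length of 264 bases, moved to 2, whereas those at ranks 7 and 41 moved to 94 and 181. Across the 97 genes, Spearman's rho of the log2 fold change with exonic length was 0.03, as a description across genes that share libraries. Exon bases were shared with another gene for 6 of the 97 (6.19%, against 8.48% of genes tested), at ranks 2, 20, 33, 57, 60 and 64. Outside rank 2 the partners had at most 52.5 CPM at p21.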

How the data were processed

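RNA of whole RCS rat retinas was selected by poly(A) and sequenced in 12 libraries. The authors deposited raw counts per gene, and the submitters' processing notes name STAR 2.5.2b, Subread 1.5.2 with featureCounts, DESeq2 and the build Rnor_6.0. The strand setting and the treatment of multi-mapped reads are not given in the sources used here, so values of overlapping or near-identical genes are uncertain. From the counts, genes were filtered (filterByExpr, minimum count 10), scaled by TMM and tested with edgeR 4.0.16 (quasi-likelihood, Benjamini-Hochberg, 0.05) in R 4.3.3. DESeq2 1.42.0 was an alternative. Standard errors came from the fold change and its F statistic. All 97 genes passed the filter. The lowest count of any of them was 138, for which counting error alone is 8.51%, and intervals from counting do not cover PCR duplicates. Replicates are separately numbered samples. The labels do not say whether they are separate animals, so p-values measure the spread between these samples. Named genes were the 10 with the highest CPM and the 8 largest falls and rises called in both lines. Identifiers are given for 2 falls and 2 rises because the gene table used here, of another assembly, paired no symbols with them, and for that reason gene lists of cell types and pathways were not analysed here. The genes and lists were chosen with earlier results of these data known. The 6 edgeR comparisons were checked on simulated data, but the outcome is not given here and no result rests on it. Alternatives were other scalings, filters and rankings, DESeq2, and leaving out libraries.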

Additional observations from a re-analysis of the deposited data

Results flagged for a closer look

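Within each age, values of 28 quantities (shares of counts, the named genes, and the genes at ranks 44 and 78) were examined for a library far from the other 5. The genes at ranks 44 and 78 were added because single libraries stood apart in them, and chance alone marks about 1 in 20 groups, so the number of such libraries is not read as a result. For the gene at rank 44, library 4 had 6260 normalized CPM against 54.3 to 888 at p21, and library 19 had 2711 against 8.39 to 994 at p60. The same gene sets the share on the 17 genes not called in both lines, which was 2.15% in library 4 against 1.60% to 1.75% in the other p21 libraries, and 1.56% without it against 1.59% to 1.67%. At p60, library 23 was the highest for the genes at rank 7 (419 against 315 to 344 normalized CPM), rank 8 (524 against 406 to 449), rank 13 (389 against 293 to 323) and rank 50 (249 against 182 to 197). Library 20 was low for the gene at rank 6 (1049 against 1641 to 1759). Library 1 was high for the gene at rank 10 at p21 (2775 against 2385 to 2520).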

How the results depend on the processing

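Among the 22 named genes, 440 of 440 repeats under other scalings, filters, DESeq2 and left-out libraries kept the direction and the call over all libraries. These genes were picked for the highest p21 counts or the largest changes called in both lines. The repeats also reuse the same libraries, so this outcome was largely set by the choice and nothing is read from it. Counts below are genes over all libraries, in the immunocompetent line and in the athymic line. With an absolute log2 fold change of at least 1, 44, 45 and 42 genes were lower (5.36%, 6.08% and 5.29% of all genes) and 1, 1 and 0 higher (5.22%, 5.74% and 5.28%). Other choices of genes used the same tests, with 30.3%, 25.8% and 24.6% of all genes lower and 31.7%, 25.6% and 25.3% higher. Genes ranked at p60 instead gave 29, 26 and 26 lower and 46, 40 and 39 higher, the first 200 gave 139, 134 and 134 lower and 29, 24 and 21 higher, and the first 50 gave 41, 40 and 40 lower and 1, 1 and 1 higher. Scaling to total counts alone gave 20, 17 and 18 higher (45.8%, 38.1% and 38.9% of all genes). It gave 64, 63 and 61 lower (18.1%, 15.4% and 14.4%). Under that scaling 8 genes, at ranks 21, 34, 42, 57, 64, 71, 85 and 96, changed sign over all libraries. Of these, 2 (ranks 34 and 57) lost their call, and those at ranks 42 and 64 were newly called higher. The scaling moved the median of all genes from 0.02 to 0.20, a shift that by itself can turn the sign of values near 0. Ranking per kilobase, at p60 and by the first 50 shared 51, 52 and 47 genes with the 97. For the interaction, no filter on low counts gave 2 genes and DESeq2 gave 4. For the lines, DESeq2 gave 2 at p60 and 2 at p21, and no filter gave 3 at p21 (3.09%, against 1.21% of all genes). Without libraries 3, 4, 5 and 22, chosen after seeing the data, library 6 is the lone athymic library at p21. In the athymic fit it was assumed to vary like libraries 23 and 24, which alone give the spread. In the comparison of the lines at p21 it was assumed to vary like libraries 1 and 2. The median log2 fold change of the 97 genes in the athymic line was -0.72, against -0.69 with all libraries. The median log2 difference between the lines at p21 was -0.05, against -0.07. The calls that follow rest on a lone p21 library, so they are only listed and nothing is read from them. The athymic line then had 63 lower and 6 higher genes (10.8% and 9.68% of all genes), and 7 were called between the lines at p21 (7.88% of all genes).

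Leaving out each library in turn gave 70 to 73 lower and 11 to 12 higher over all libraries (28.5% to 29.6% and 29.9% to 30.8% of all genes), 68 to 71 and 9 to 11 in the immunocompetent line (20.9% to 24.2% and 21.0% to 23.9%), and 67 to 72 and 10 to 11 in the athymic line (20.3% to 23.6% and 19.7% to 22.6%). The interaction and the lines at p60 and at p21 each gave 0 to 1 genes (0.00611% to 0.843%, 0% to 0.386% and 0% to 0.557% of all genes). The 1 gene was at rank 39 without library 24 for the first 2 comparisons, and at rank 78 without library 6 at p21. The fall in the share of counts was 5.45 to 5.68 percentage points (5.60 with all libraries). With libraries 4, 19 and 24 left out together, 73, 71 and 76 genes were lower (27.3%, 24.1% and 22.2% of all genes). In the same fits 11, 11 and 11 were higher (29.0%, 23.9% and 21.8%). The order is over all libraries, the immunocompetent line and the athymic line. No paired analysis was possible because the groups share no replicate numbers. With 3 libraries a group, the exact tests of shares could not pass 0.05.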
